A study of Mus musculus with 4 samples.

Results

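The genes of the hypoxia response and of glycolysis were examined in AML12, a line of immortalised mouse hepatocytes established from a mouse transgenic for human transforming growth factor alpha. The members were 37 genes chosen by symbol, and all 37 were found among the 31828 genes of the deposited table. They fall into 5 hypoxia-inducible factor (HIF) subunits and regulators, 12 hypoxia targets outside glycolysis, 14 glycolytic enzymes, and 6 genes of glucose entry, glycolytic regulation and pyruvate fate. There were 2 libraries of 2D-cultured cells, grown as a flat layer in a dish, and 2 of 3D-cultured cells, embedded in Matrigel, a basement membrane extract in which the cells form spheroids. Both cultures received 1 mM hydroxyurea, which blocks DNA replication and holds cells at the G1/S boundary. The drug was added at 50% confluence in 2D and after 24 h of growth in 3D, and stayed on for 24 h in 2D and 36 h in 3D, so that culture form and time in the drug cannot be told apart. All cells had the same medium, with 10% serum, 10 μg/ml insulin, 5.5 μg/ml transferrin, 5 ng/ml selenite and 40 ng/ml dexamethasone. The labels do not say whether replicates were separate cultures, so p-values measure the spread between these libraries, which may be technical.

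Cells measure oxygen through the HIF prolyl hydroxylases, which use it to mark the HIF alpha subunits for the von Hippel-Lindau (VHL) ubiquitin ligase. When oxygen is short the alpha subunits last longer, pair with ARNT and switch on genes through a short DNA core, ACGTG or GCGTG. The targets raise glucose uptake and glycolysis, turn pyruvate away from mitochondria, and act on blood vessel growth, acid balance, mitophagy and collagen. Liver cells normally carry their own glycolytic isoenzymes, such as the liver form of pyruvate kinase, and lose them in dedifferentiated growth. The alpha subunits are governed mostly as proteins, which an RNA measurement does not see.

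Promoter windows of 250 bases before the transcription start, from RefSeq on GRCm38.p6, were available for 33 of the 37 genes, the exceptions being Epas1, Ero1l, Ndrg1 and Bnip3l. The core was searched as ACGTG and GCGTG on both strands, with overlapping matches, as in CACGTG, joined into 1 site. At least 1 window held a site for 29 of the 33 genes (87.9%), and 41.5% of all 27025 symbols in the promoter table had such a window. All 9 hypoxia targets outside glycolysis with a window held a site, as did 11 of the 14 glycolytic enzymes. The genes were listed for their known place in this pathway, so the share is a description and not a test. The windows of 6 genes whose RNA is described later are printed 5′ to 3′ on the strand of the gene, with the cores in capitals. Egln3 fell and Eno2 rose by more than 1 on the log2 scale, Bnip3 and Ldha rose, and Pfkl and Pfkp are isoenzymes that moved in opposite directions.
Egln3 (chr12:54203875-54204124, minus strand): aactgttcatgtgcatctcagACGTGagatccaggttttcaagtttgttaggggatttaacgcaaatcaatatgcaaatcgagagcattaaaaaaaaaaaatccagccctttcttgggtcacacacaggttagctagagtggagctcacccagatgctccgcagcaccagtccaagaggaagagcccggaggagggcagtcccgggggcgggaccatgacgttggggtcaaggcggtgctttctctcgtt
Bnip3 (chr7:138909507-138909756, minus strand): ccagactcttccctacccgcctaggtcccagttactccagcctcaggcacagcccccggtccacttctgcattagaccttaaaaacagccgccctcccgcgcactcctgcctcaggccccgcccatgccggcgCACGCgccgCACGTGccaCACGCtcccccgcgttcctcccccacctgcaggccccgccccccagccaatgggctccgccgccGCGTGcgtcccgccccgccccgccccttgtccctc
Ldha (chr7:46845554-46845803, plus strand): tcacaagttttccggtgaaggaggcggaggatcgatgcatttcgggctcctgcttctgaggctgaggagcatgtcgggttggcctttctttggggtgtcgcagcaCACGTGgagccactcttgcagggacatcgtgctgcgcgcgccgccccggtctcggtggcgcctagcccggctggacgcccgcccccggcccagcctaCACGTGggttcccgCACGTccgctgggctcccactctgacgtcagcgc
Pfkl (chr10:78009808-78010057, minus strand): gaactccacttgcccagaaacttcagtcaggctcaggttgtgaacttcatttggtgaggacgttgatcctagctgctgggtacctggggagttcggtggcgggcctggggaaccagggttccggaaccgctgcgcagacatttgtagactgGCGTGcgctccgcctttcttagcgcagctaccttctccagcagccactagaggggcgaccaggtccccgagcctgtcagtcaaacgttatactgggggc
Pfkp (chr13:6648772-6649021, minus strand): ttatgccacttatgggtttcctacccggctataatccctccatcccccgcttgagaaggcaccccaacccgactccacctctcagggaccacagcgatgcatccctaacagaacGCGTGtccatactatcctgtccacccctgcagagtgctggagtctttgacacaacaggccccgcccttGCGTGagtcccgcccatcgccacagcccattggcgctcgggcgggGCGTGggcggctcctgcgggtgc
Eno2 (chr6:124769674-124769923, minus strand): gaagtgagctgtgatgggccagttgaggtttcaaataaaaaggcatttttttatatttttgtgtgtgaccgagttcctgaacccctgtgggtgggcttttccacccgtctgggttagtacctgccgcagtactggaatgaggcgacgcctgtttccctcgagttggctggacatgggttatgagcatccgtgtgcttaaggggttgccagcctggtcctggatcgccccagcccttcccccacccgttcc
Ldha has a second window in the table, with 1 site, that is not printed. In the windows printed Bnip3 showed 4 sites, Ldha and Pfkp 3 each, and Egln3 and Pfkl 1 each. The searched letters did not occur in the Eno2 window. A match of these letters does not show binding, and no match says only that they are not in this window.

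Values are in TPM, a transcript abundance corrected for length and scaled to a fixed total in every library, so the depth is unknown. In each library 13891 to 14256 genes reached 1 TPM, and mitochondrial genes held 5.37% to 5.44% of the TPM in 2D and 6.51% to 6.78% in 3D. The hepatocyte label was only partly borne out by its markers. Of 7 hepatocyte markers 4 reached 1 TPM in all libraries. The summed level of the 7 was 84.6 to 86.2 TPM in 2D and 489 to 503 TPM in 3D. The 4 were Hnf4a, Trf, Ttr and Apoa1, each higher in both 3D libraries. Hnf4a had 56.7 and 57.6 TPM in 2D and 164 and 156 TPM in 3D. Trf had 19.3 and 18.4 TPM in 2D and 227 and 231 TPM in 3D. Ttr had 3.98 and 3.11 TPM in 2D and 88.1 and 80.9 TPM in 3D. Apoa1 had 5.48 and 4.30 TPM in 2D and 11.04 and 10.95 TPM in 3D. Albumin stood at 0.819 and 1.20 TPM in 2D and at 12.7 and 10.0 TPM in 3D, while Serpina1a and Fgb were listed at 0 in 2D and at no more than 0.0768 TPM in 3D. Cholangiocyte markers summed to 2156 to 2235 TPM in 2D and 1505 to 1571 TPM in 3D, led by Krt19 and Krt7, with 3 of 4 at 1 TPM or more in all libraries and Epcam at 0 in 3 of the 4 libraries. Sox9, the third of those expressed, went the other way, with 15.2 and 16.5 TPM in 2D and 24.2 and 25.4 TPM in 3D (log2 fold change 0.62, adjusted p by limma 0.00317). Macrophage markers summed to 18.5 to 19.4 TPM in 2D and 22.2 to 26.4 TPM in 3D, with only Cd68 at 1 TPM or more and Adgre1 at 0 in 3 libraries. Endothelial markers (0.788 to 1.47 TPM in 2D, 1.14 to 1.47 TPM in 3D) and fibroblast or stellate markers (1.21 to 1.51 TPM in 2D, 0.865 to 1.37 TPM in 3D) had none at 1 TPM in all libraries. The part of these marker differences in the results was not tested. In such bulk libraries fewer cells of a type and less RNA per cell cannot be told apart.

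The comparison asked how expression differs between cells grown in 2D and 3D. Genes with a mean of at least 1 TPM over the 4 libraries were tested with limma on log2(TPM + 1), and a gene was called when its p-value, after Benjamini-Hochberg adjustment over the 14116 genes tested, was under 0.05. Fold changes are 3D minus 2D on that log2 scale, where the added 1 TPM shrinks the differences of weakly expressed genes. Of the 37 genes 34 were tested, and all 34 had a mean of at least 1 TPM in both cultures. Car9, Hk2 and Ldhb were below the filter. Calls were made for 21 of the 34 (61.8%), against a background of 50.5% of all genes tested. In 3D-cultured cells 14 genes rose (41.2%, background 23.4%) and 7 fell (20.6%, background 27.1%). The remaining 13 did not pass the threshold, at log2 fold changes of no more than 0.37 in size. At an adjusted p-value under 0.01, which 29.9% of all genes tested passed, 10 genes were higher and 3 lower. The median log2 fold change was 0.16 over the 34 genes and -0.04 over all genes tested.

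Most changes were small. Egln3, Epas1, Eno2 and Gapdh changed by more than 1 on the log2 scale, 4 of 34 genes (11.8%, background 8.2%). Without 2D replicate 1 Gapdh was at -0.61 and Eno2 at 0.95, while Egln3 (-1.11) and Epas1 (1.06) stayed over 1 in size. The libraries of the cultures did not overlap for 27 of the 34 genes (79.4%), close to the 77.5% of all genes tested. Leaving out 3D replicate 2 gave 11 genes higher and 3 lower in 3D, with 4785 of all genes called in place of 7122. Without 3D replicate 1 there were 10 and 4 (4720 of all genes), without 2D replicate 2 there were 13 and 4 (5954), and without 2D replicate 1 there were 14 and 5 (5941). In these fits the lone library of a culture is assumed to vary like the others.

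**Figure D1:**
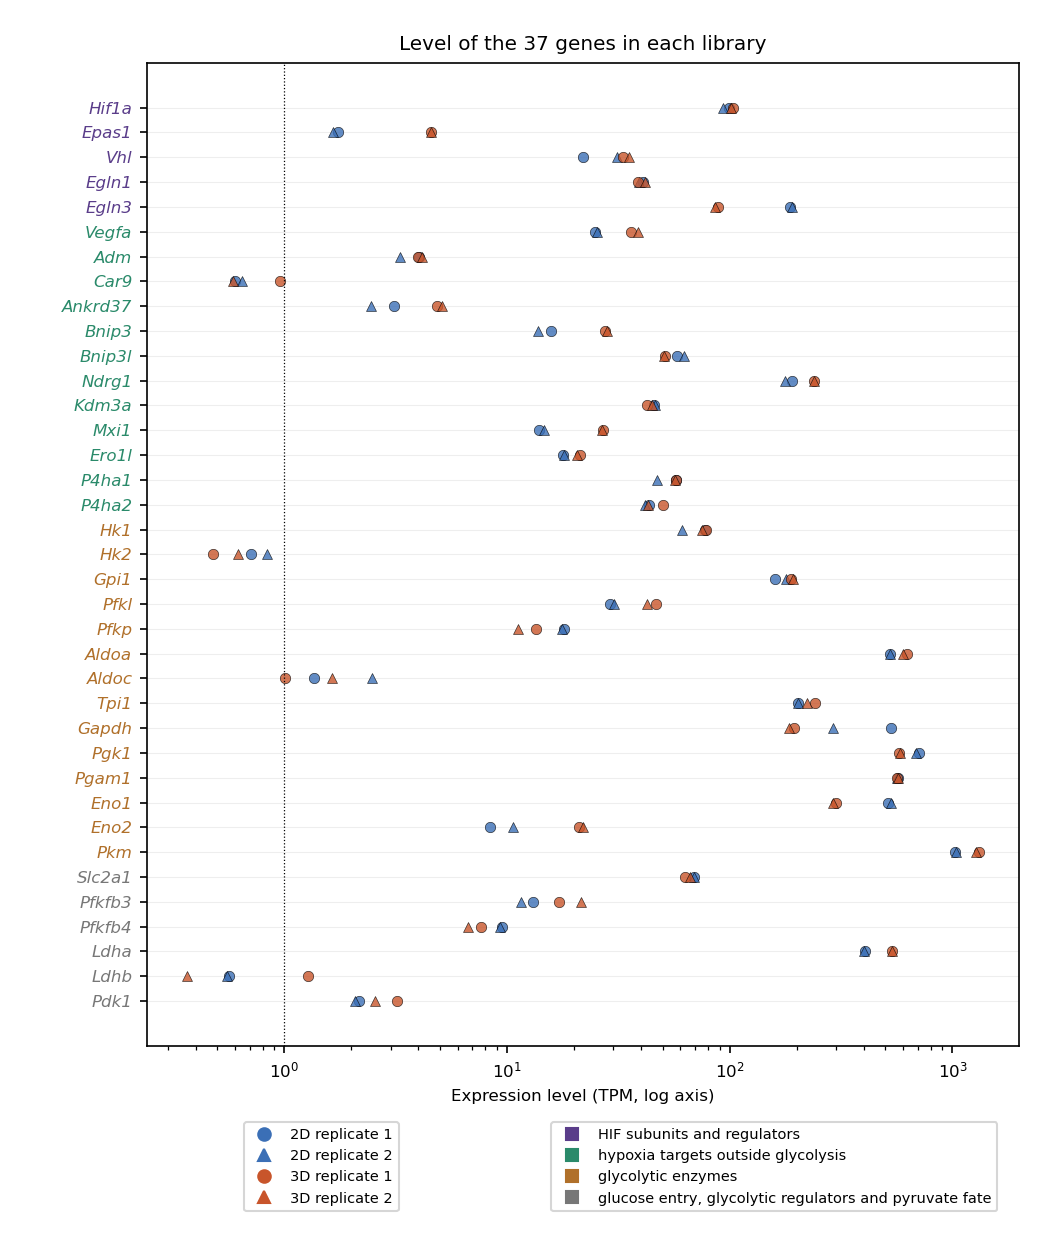
Expression level (TPM, log axis) of each of the 37 genes in the 4 libraries, blue for 2D and orange for 3D, circles for replicate 1 and triangles for replicate 2, with gene names coloured by group and a dotted line at 1 TPM. Pkm is the highest at 1023 to 1314 TPM, Egln3 and Eno1 stand clearly higher in 2D, and the Gapdh value of 2D replicate 1 lies apart from its replicate.

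Among the HIF subunits and regulators 1 of 5 genes rose and 1 fell (20% each, background 23.4% and 27.1%). Hif1a, the broadly expressed alpha subunit, stood at 99.6 and 93.7 TPM in 2D and at 103 and 101 TPM in 3D. The 3D libraries were higher, but the log2 fold change of 0.08 (95% interval -0.05 to 0.21) did not pass the threshold (adjusted p by limma 0.243). Epas1, which encodes HIF2 alpha, had 1.75 and 1.66 TPM in 2D and 4.56 and 4.54 TPM in 3D (chromosome 17, 86753907 to 86833410, GRCm38). The replicates lay close together and the cultures apart, with a log2 fold change of 1.04 (SE 0.10, adjusted p by limma 0.00211). On the TPM scale its level was 2.67 times higher in 3D. Even so, Epas1 made up only 1.73% of the summed Hif1a and Epas1 TPM in 2D and 4.26% in 3D. That sum leaves out the alpha subunit Hif3a, from the wider list and named after its values were seen. With Hif3a included, Hif1a held 80.1% and 75.2% in 2D and 74.8% and 73.0% in 3D. Hif3a held 18.5% and 23.5% in 2D and 21.9% and 23.7% in 3D.

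Egln3, a HIF prolyl hydroxylase that is itself a HIF target, fell in 3D. It stood at 186 and 189.7 TPM in 2D and at 88.4 and 86.1 TPM in 3D (chromosome 12, 54178981 to 54203860), a level 2.15 times higher in 2D. Both 2D libraries were far above both 3D libraries, and the log2 fold change was -1.10 (SE 0.04, adjusted p by limma 0.00028). Of all tested genes 6.89% had a larger absolute fold change. Egln1, the main oxygen-sensing hydroxylase in most cells, had 40.7 and 39.2 TPM in 2D and 38.6 and 41.5 TPM in 3D. These values overlapped, with a log2 fold change of 0.00 (95% interval -0.16 to 0.17, adjusted p by limma 0.985). Vhl, which recognises hydroxylated HIF alpha, had 21.9 and 31.1 TPM in 2D and 33.1 and 35.2 TPM in 3D. The spread between the 2D libraries was wide and the log2 fold change of 0.37 did not pass (adjusted p by limma 0.135). It did pass without 2D replicate 2, at 0.62 (adjusted p by limma 0.0109). The share of Egln3 in the summed TPM of Egln1, Egln2 and Egln3 was 61.6% and 62.7% in 2D and 41.8% and 40.6% in 3D. Egln2, from the wider list and named after its values were seen, rose by 0.18 on the log2 scale (adjusted p by limma 0.0258).

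Of the hypoxia targets outside glycolysis 11 of 12 were tested, and 6 rose (54.5%, background 23.4%), 1 fell (9.09%, background 27.1%) and 4 did not pass. Their median log2 fold change was 0.22, against -0.04 over all genes tested. Bnip3, a mitochondrial outer membrane protein that acts in mitophagy, had 15.7 and 13.8 TPM in 2D and 27.4 and 28.0 TPM in 3D. Its log2 fold change was 0.87 (SE 0.08, adjusted p by limma 0.00187). Its promoter window, printed earlier, held 4 sites, whose part in this change was not tested. Bnip3l, its close relative, moved the other way, from 57.9 and 62.1 TPM in 2D to 51.3 and 50.6 TPM in 3D. The log2 fold change was -0.23 (adjusted p by limma 0.0271), and the call was lost without 2D replicate 2 (-0.18, adjusted p 0.0764) and without either 3D library (adjusted p 0.0988 and 0.117). Bnip3 made up 21.3% and 18.2% of the pair in 2D and 34.8% and 35.6% in 3D.

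Mxi1, a MYC-antagonising repressor, had 13.95 and 14.6 TPM in 2D and 26.9 and 26.6 TPM in 3D. The libraries of each culture were nearly level with each other, and the log2 fold change was 0.86 (SE 0.06, adjusted p by limma 0.000959). Vegfa, the main growth factor of blood vessels, had 24.9 and 25.4 TPM in 2D and 36.1 and 38.7 TPM in 3D, a log2 fold change of 0.55 (SE 0.06, adjusted p by limma 0.00293). Ndrg1, a stress-responsive gene, was the most abundant of this group at 190.5 and 178 TPM in 2D and 238 and 239 TPM in 3D. It rose by 0.37 (SE 0.05, adjusted p by limma 0.00404). Ankrd37, an ankyrin repeat gene with 3.11 and 2.45 TPM in 2D and 4.86 and 5.09 TPM in 3D, rose by 0.67 (SE 0.13, adjusted p by limma 0.0133), although without 3D replicate 1 or 2 the adjusted p was 0.0559 or 0.0661. Ero1l, an oxidase of protein folding in the endoplasmic reticulum, had 17.8 and 18.0 TPM in 2D and 21.4 and 20.5 TPM in 3D. Its log2 fold change of 0.22 (adjusted p by limma 0.045) lost its call whichever library was left out, with adjusted p-values of 0.1 to 0.196.

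Several classical targets did not pass. Adm, the vasodilator adrenomedullin, stood at 3.31 to 4.01 TPM in 2D and 3.98 to 4.14 TPM in 3D (log2 fold change 0.12, 95% interval -0.19 to 0.44). Kdm3a, a histone demethylase, stood at 45.7 to 46.3 TPM in 2D and 42.6 to 44.8 TPM in 3D (-0.07, interval -0.22 to 0.07). P4ha1 and P4ha2, the collagen prolyl 4-hydroxylases, had log2 fold changes of 0.14 (interval -0.14 to 0.41) and 0.13 (interval -0.10 to 0.36). P4ha1 passed without 2D replicate 1, at 0.28 (adjusted p by limma 0.0291), that library being at 57.3 TPM and its replicate at 46.9 TPM. The adjusted p by limma-values of these 4 genes were 0.286 to 0.434. Car9, the membrane carbonic anhydrase that is often used as a marker of hypoxia, was barely listed, at 0.599 and 0.648 TPM in 2D and 0.959 and 0.586 TPM in 3D. With no filter on low values its log2 fold change was 0.12 (adjusted p by limma 0.634).

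**Figure D2:**
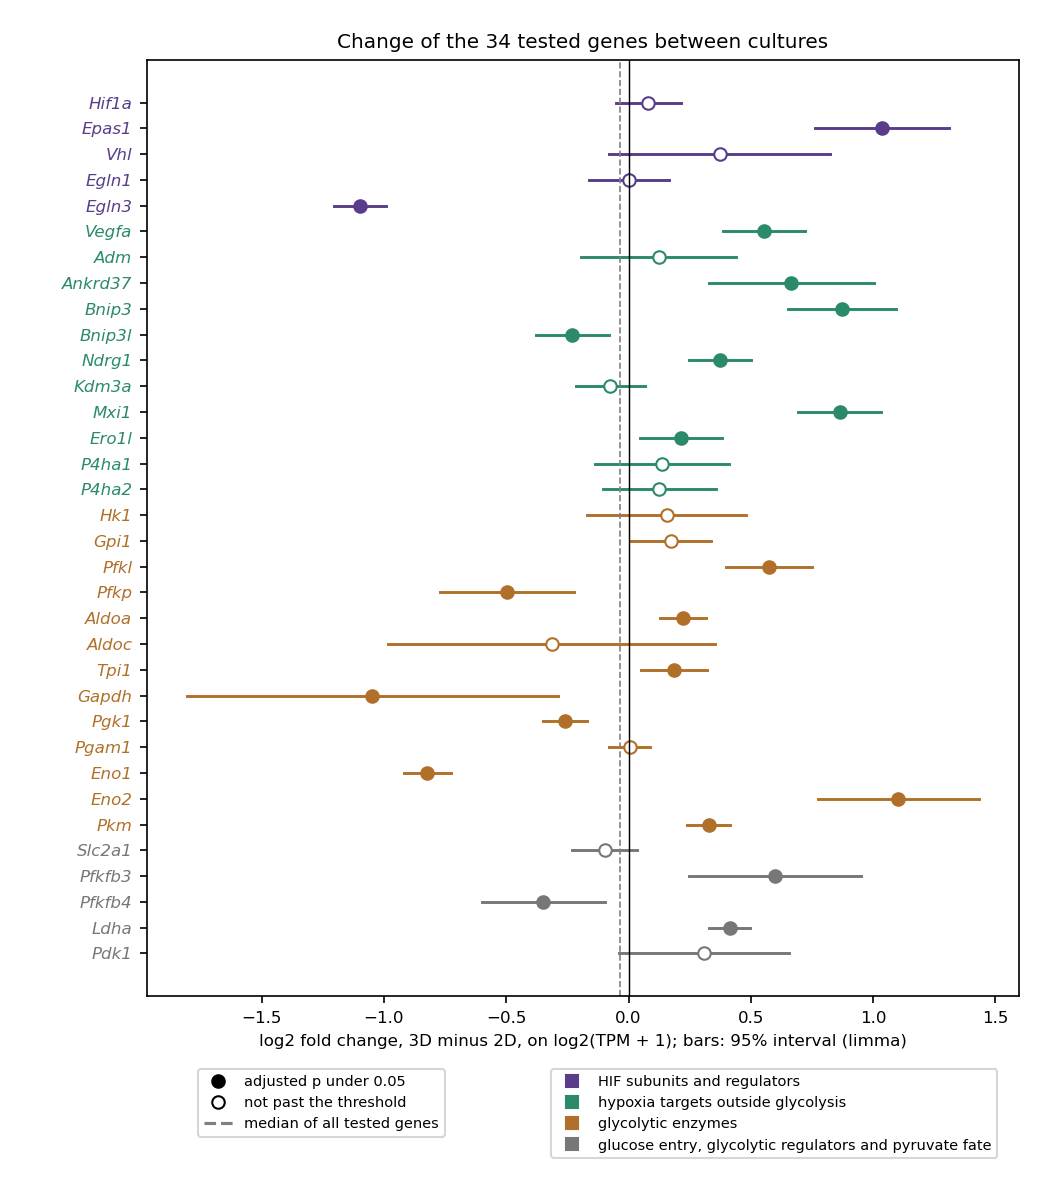
Log2 fold change, 3D minus 2D, of the 34 tested genes on log2(TPM + 1) with 95% intervals from limma, coloured by group, with filled points for an adjusted p-value under 0.05 and a dashed line at the median of all tested genes (-0.04). Eno2 (1.10) and Epas1 (1.04) are farthest to the right, Egln3 (-1.10), Gapdh (-1.05) and Eno1 (-0.82) farthest to the left, and Gapdh has the widest interval, -1.81 to -0.29.

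The glycolytic enzymes moved in both directions. Of 13 tested enzymes 5 rose (38.5%, background 23.4%), 4 fell (30.8%, background 27.1%) and 4 did not pass. The median log2 fold change was 0.16, and it was -0.0043 without 2D replicate 2. Summed over all 14 enzymes the level was 4363 and 4131 TPM in 2D and 4159 and 4069 TPM in 3D, so that the cultures overlapped. Without Gapdh and Eno1, whose rows share sequence with copies elsewhere, the sum over 12 enzymes was 3318 and 3310 TPM in 2D and 3667 and 3592 TPM in 3D, with both 3D libraries above both 2D libraries. Sums and shares are given as values in each library and were not tested, except for the sums of Gapdh and of Eno1 with their copies.

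Of the enzymes from hexokinase to phosphofructokinase Pfkl rose and Pfkp fell in 3D. Hk1, which traps glucose as its phosphate, had 77.7 and 60.8 TPM in 2D and 78.2 and 75.2 TPM in 3D. The values overlapped (log2 fold change 0.16, 95% interval -0.17 to 0.48), and without 2D replicate 1 the fold change was 0.33 (adjusted p by limma 0.0208). Hk2, the hexokinase most often induced by HIF, was almost absent, at 0.71 and 0.836 TPM in 2D and 0.478 and 0.622 TPM in 3D. Gpi1, glucose-6-phosphate isomerase, had 159.7 and 178 TPM in 2D and 188 and 192 TPM in 3D, a log2 fold change of 0.17 just short of the threshold (adjusted p by limma 0.0805, and 0.0201 at 0.25 without 2D replicate 2). Pfkl, the liver phosphofructokinase of the committing step, had 29.0 and 30.2 TPM in 2D and 46.5 and 42.7 TPM in 3D. It rose by 0.57 (SE 0.07, adjusted p by limma 0.00306), with the cultures well apart. Pfkp, the platelet form, fell from 18.0 and 17.6 TPM in 2D to 13.5 and 11.3 TPM in 3D, a log2 fold change of -0.50 (SE 0.10, adjusted p by limma 0.0169). That call was lost without 2D replicate 1 (adjusted p 0.0649), 2D replicate 2 (0.0567) or 3D replicate 2 (0.0552).

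Aldoa, the ubiquitous aldolase, had 523 and 522 TPM in 2D and 622 and 599 TPM in 3D (log2 fold change 0.22, SE 0.04, adjusted p by limma 0.00787). Both 3D libraries were higher, although without 3D replicate 1 the adjusted p was 0.0743. A second row of the table has the symbol Aldoa as well (ENSMUSG00000114515, chromosome 7, 126800790 to 126809108), at 4.84 and 5.22 TPM in 2D and 6.68 and 7.04 TPM in 3D, and was not counted among the 37. Aldoc, the brain form, lay at 1.36 and 2.48 TPM in 2D and 1.01 and 1.64 TPM in 3D, with overlapping values (adjusted p by limma 0.352). Tpi1, triosephosphate isomerase, had 203 TPM in both 2D libraries and 241 and 222 TPM in 3D. Its log2 fold change of 0.19 (adjusted p by limma 0.0372) was not called without 2D replicate 1 or 2 (adjusted p 0.0964 and 0.0966) or without 3D replicate 1 (0.13, adjusted p 0.176).

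From glyceraldehyde 3-phosphate to phosphoenolpyruvate the called genes, apart from Eno2, fell. Gapdh, the enzyme widely used as a reference gene, had 531 and 290.1 TPM in 2D and 194 and 185 TPM in 3D (chromosome 6, 125161715 to 125166467). The 2D replicates differed by 0.87 on the log2 scale, and the median absolute difference between 2D replicates over all tested genes was 0.10. The log2 fold change was -1.05 (SE 0.29, adjusted p by limma 0.0372). It was -0.61 without 2D replicate 1 and -1.48 without 2D replicate 2, and the call was lost without either 3D library (adjusted p 0.2 and 0.181), with no filter on low values (0.0852), with the replicate block (0.0709), after rescaling without mitochondrial and the 20 highest genes (0.0685) and with a constant prior variance (0.0621). Pgk1, the first ATP-yielding step, fell from 705 and 684 TPM in 2D to 578 and 583 TPM in 3D (-0.26, SE 0.03, adjusted p by limma 0.00434). Pgam1, phosphoglycerate mutase, was level at 568 and 561 TPM in 2D and 563 and 569.7 TPM in 3D, with a log2 fold change of 0.00 (95% interval -0.08 to 0.09).

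Eno1, the ubiquitous enolase, fell from 515 and 531 TPM in 2D to 299 and 292 TPM in 3D (chromosome 4, 150236721 to 150248879). Its replicates agreed closely and the log2 fold change was -0.82 (SE 0.04, adjusted p by limma 0.000381). Eno2, the form known from neurons, rose from 8.398 and 10.7 TPM in 2D to 21.04 and 22.0 TPM in 3D, a log2 fold change of 1.10 (SE 0.12, adjusted p by limma 0.00286). Eno2 stayed a minor enolase. It made up 1.24% and 1.495% of the summed Eno1, Eno2 and Eno3 TPM, copies left out, in 2D and 4.54% and 4.99% in 3D. Pkm, the pyruvate kinase of most proliferating cells, was the most abundant of the 37 genes, at 1023 and 1038 TPM in 2D and 1314 and 1273 TPM in 3D. It rose by 0.33 (SE 0.03, adjusted p by limma 0.00226).

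Gapdh and Eno1 both have copies elsewhere in the genome that are almost identical to their transcripts, and the table lists large values on them. A copy was counted when at least 50% of its transcript matched the transcript of the gene at 95% identity or more, in the sense direction, with GENCODE M21 transcripts. For Gapdh 77 such rows were found, 13 of them with a mean of at least 1 TPM. They held 1520 and 1510 TPM in 2D and 1011 and 954 TPM in 3D, which was 74.1% and 83.9% of the total in 2D and 83.9% and 83.7% in 3D. A single processed pseudogene on chromosome 2, Gm13394, stood at 1190 and 1179.6 TPM in 2D and 791 and 738 TPM in 3D, higher than the Gapdh row itself in every library. Its transcript matches that of Gapdh at 99.9% identity, so the split of reads between them is uncertain. Gapdh with its copies summed to 2050.4 and 1800.0 TPM in 2D and 1205 and 1139 TPM in 3D. Tested as 1 row, that sum had a log2 fold change of -0.71 (adjusted p by limma 0.00223).

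For Eno1 the copies were 3, of which Eno1b on chromosome 18 (211 and 208 TPM in 2D, 138 and 148 TPM in 3D) and Gm4735 on chromosome 2 (235 and 230.0 TPM in 2D, 159 and 168 TPM in 3D) carried the signal. They held 46.5% and 45.3% of the total in 2D and 49.9% and 52.0% in 3D. Eno1 with its copies summed to 962 and 969.6 TPM in 2D and 597 and 608 TPM in 3D, a log2 fold change of -0.68 as 1 row (adjusted p by limma 0.000415). Both genes were lower in 3D with and without their copies. Of the other called genes with copies Bnip3 had 2.19% to 10.7% and Bnip3l 5.55% to 7.01% of the total on copies, and Ldha, Pgk1, Pkm and Tpi1 less than 1% in every library.

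**Figure D3:**
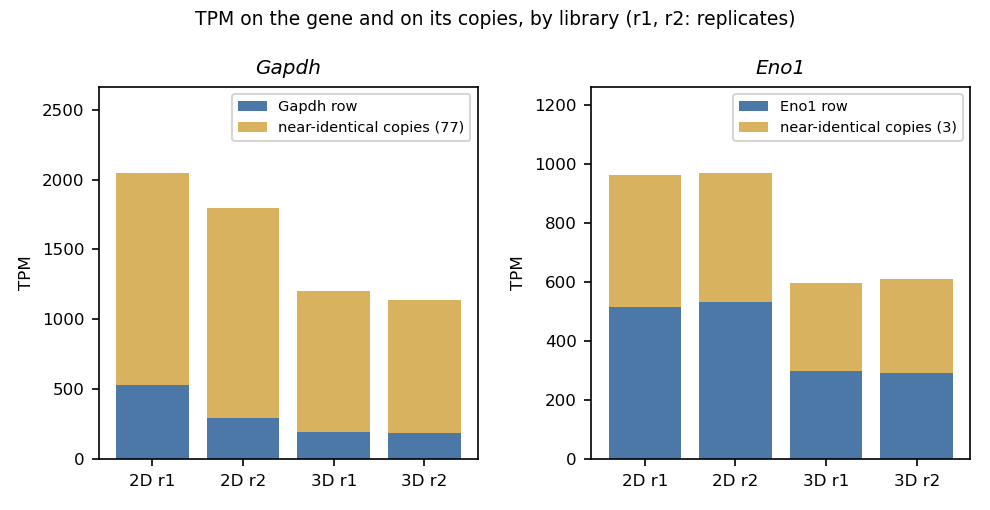
TPM on the rows of Gapdh (left) and Eno1 (right) and, stacked on them, on their near-identical copies in each library. The copies hold most of the Gapdh total, which is 1800.0 and 2050.4 TPM in 2D and 1139 and 1205 TPM in 3D, and 45.3% to 52.0% of the Eno1 total.

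Among the remaining 6 genes 2 of 5 tested rose (40.0%, background 23.4%) and 1 fell (20%, background 27.1%). Ldha, which reduces pyruvate to lactate, had 403 and 399 TPM in 2D and 533 and 535 TPM in 3D. The replicates agreed closely, and the log2 fold change was 0.41 (SE 0.03, adjusted p by limma 0.0011). Ldhb, the heart form, lay below the filter at 0.564 and 0.551 TPM in 2D and at 1.28 and 0.365 TPM in 3D, so that Ldha made up 99.76% to 99.93% of the summed TPM of both genes. Slc2a1, the glucose transporter GLUT1, had 69.4 and 69.3 TPM in 2D and 63.0 and 66.5 TPM in 3D (-0.10, 95% interval -0.23 to 0.04, adjusted p by limma 0.171). Pdk1, a kinase that shuts off pyruvate dehydrogenase, had 2.16 and 2.08 TPM in 2D and 3.19 and 2.56 TPM in 3D, with a log2 fold change of 0.31 that did not pass (adjusted p by limma 0.116).

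Pfkfb3 and Pfkfb4 make and break fructose 2,6-bisphosphate, a potent activator of phosphofructokinase, and both are known HIF targets. Pfkfb3 had 13.2 and 11.5 TPM in 2D and 17.1 and 21.4 TPM in 3D, and rose by 0.60 (SE 0.13, adjusted p by limma 0.0201). Pfkfb4 had 9.45 and 9.32 TPM in 2D and 7.65 and 6.70 TPM in 3D, and fell by 0.35 on the log2 scale (SE 0.10, adjusted p by limma 0.0368). Pfkfb3 thus made up 58.2% and 55.3% of the pair in 2D and 69.1% and 76.2% in 3D. The pair leaves out Pfkfb1 and Pfkfb2, from the wider list and named after their values were seen. Pfkfb2 was more abundant than either gene of the pair in every library. It had 30.7 and 32.1 TPM in 2D and 31.1 and 34.25 TPM in 3D (0.06, adjusted p by limma 0.553). Pfkfb1 had 7.52 and 9.16 TPM in 2D and 6.75 and 5.02 TPM in 3D. The Pfkfb3 call was lost without 2D replicate 2 (adjusted p 0.0852) and without 3D replicate 2 (0.0661), and the Pfkfb4 call without any 1 of the 4 libraries (0.059 to 0.154).

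**Figure D4:**
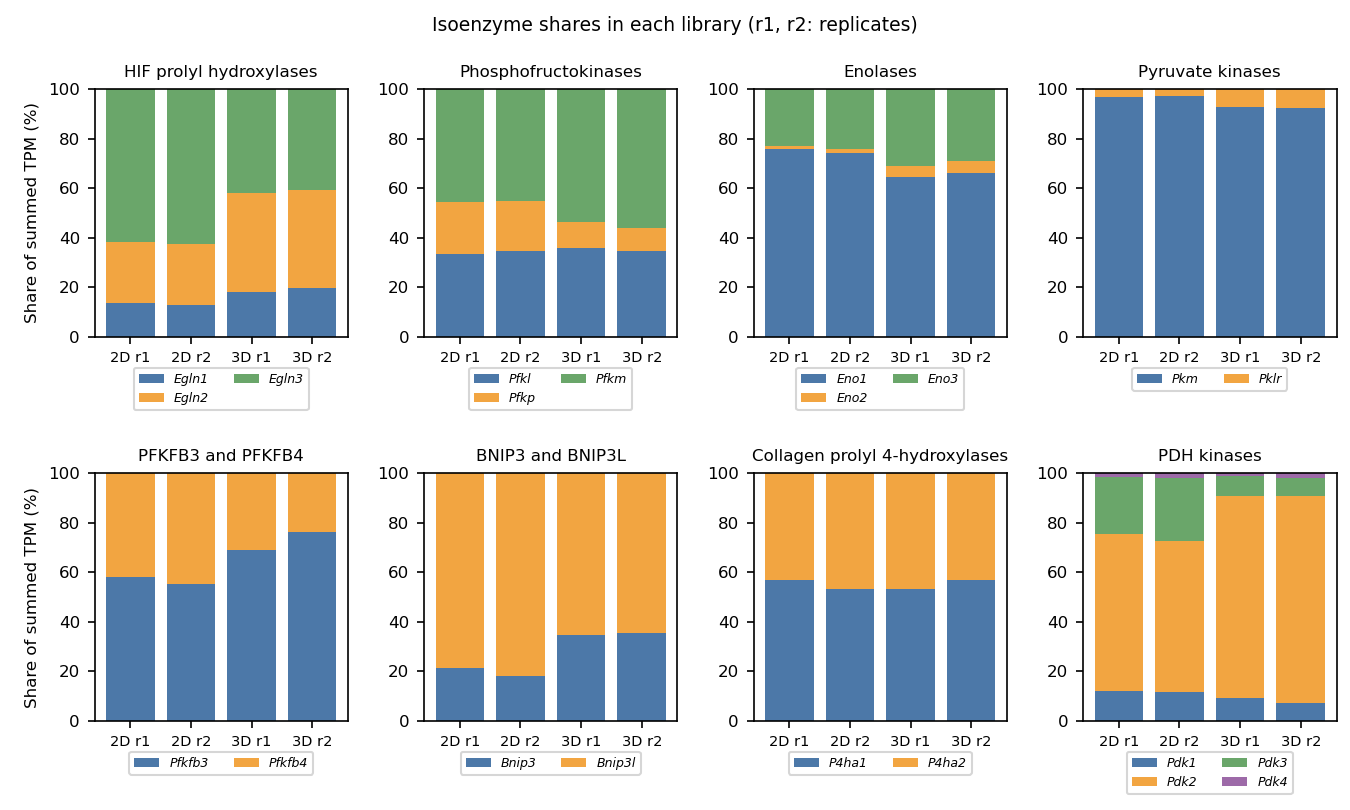
Share of each isoenzyme in the summed TPM of its set, in percent, in each of the 4 libraries. The set of Pfkfb3 and Pfkfb4 leaves out Pfkfb1 and Pfkfb2. From 2D to 3D the share of Egln3 went from 61.6% and 62.7% to 41.8% and 40.6%, that of Pfkp from 20.8% and 20.2% to 10.4% and 9.18%, and that of Pdk2 from 63.4% and 61.2% to 81.9% and 83.7%.

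Relatives of these genes were taken from a wider list of 79 symbols, of which 78 were in the table and 61 were tested. Of these 24 rose and 14 fell in 3D (62.3% called, background 50.5%). A mean of at least 1 TPM in both cultures was reached by 58 of the 61. The counts include the rest, which passed the filter through 1 culture only. Among 11 other glycolytic isoenzymes tested 6 rose (54.5%, background 23.4%) and 2 fell (18.2%, background 27.1%). Only 9 of the 11 had such a mean in both cultures, and the others count among the 6 that rose. Pklr, the liver and red cell pyruvate kinase, had 35.1 and 31.6 TPM in 2D and 102 and 103 TPM in 3D, a log2 fold change of 1.59 (SE 0.07, adjusted p by limma 0.00032). Its share of the pyruvate kinase TPM went from 3.32% and 2.96% to 7.18% and 7.46%. Ldhd, a mitochondrial D-lactate dehydrogenase, rose from 51.0 and 46.8 TPM to 143 and 115 TPM (1.37, SE 0.12, adjusted p by limma 0.00136), while Eno3 did not pass (-0.27, adjusted p by limma 0.0561). Pfkm, the muscle phosphofructokinase, named after its values were seen, was the most abundant of the 3 forms, at 39.3 and 39.4 TPM in 2D and 69.3 and 68.7 TPM in 3D (0.79, SE 0.05, adjusted p by limma 0.000578).

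**Figure D5:**
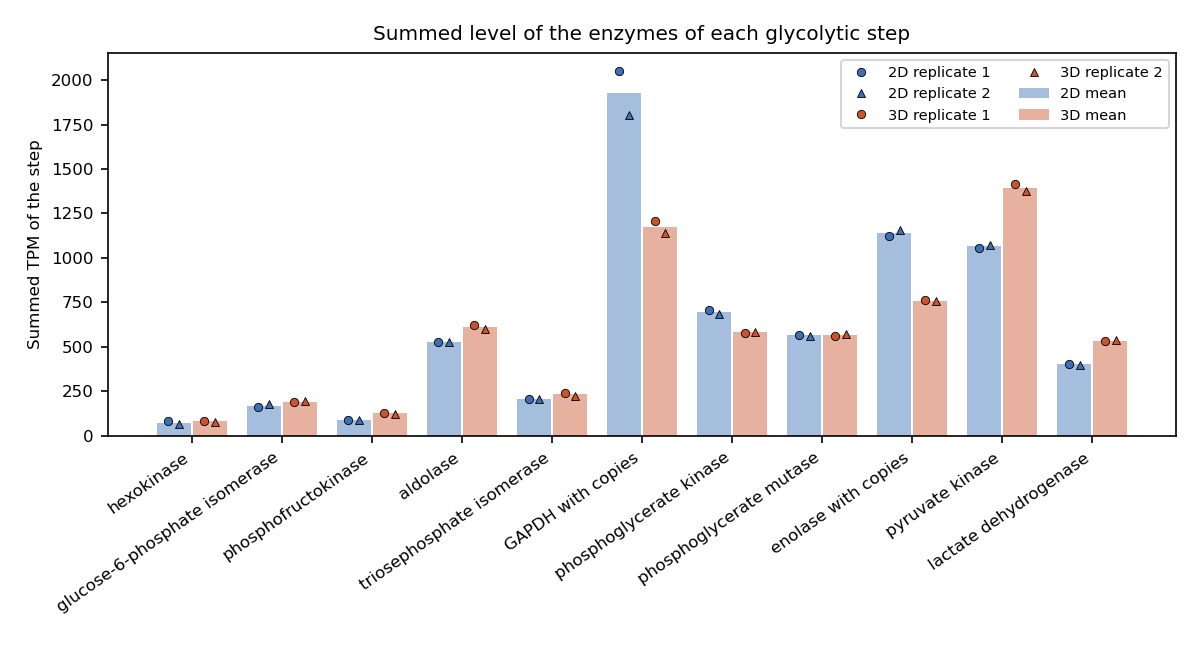
Summed TPM of the enzymes of each glycolytic step in 2D (blue) and 3D (orange), with bars for the mean of 2 libraries and points for the libraries, aldolase taken as Aldoa and Aldoc, and near-identical copies added for GAPDH and enolase. Phosphofructokinase, aldolase, pyruvate kinase and lactate dehydrogenase are higher in 3D (means of 126.0, 612, 1395 and 535 TPM against 86.8, 525, 1064 and 401 TPM), and GAPDH, phosphoglycerate kinase and enolase are lower (1172, 580.4 and 760 TPM against 1926, 695 and 1140.0 TPM).

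Summed by step, the plot of step totals sets out the order along the pathway. Phosphofructokinase was 1.45 times, pyruvate kinase 1.31 times and lactate dehydrogenase 1.33 times as high in 3D as in 2D, with no overlap between cultures. With copies included GAPDH was at 0.609 and enolase at 0.667 of the 2D level. Smaller differences without overlap were seen at 4 other steps. Glucose-6-phosphate isomerase was 1.13 times, aldolase 1.17 times and triosephosphate isomerase 1.14 times as high in 3D. Phosphoglycerate kinase was at 0.835 of the 2D level. Hexokinase and phosphoglycerate mutase overlapped between the cultures.

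In the wider HIF pathway 3 of 11 tested genes rose (27.3%, background 23.4%) and 2 fell (18.2%, background 27.1%). Cited2, a HIF-induced competitor for the coactivator p300, rose from 37.4 and 35.6 TPM to 62.5 and 60.8 TPM (0.74, SE 0.05, adjusted p by limma 0.00092). The elongins of the VHL complex were lower, with Elob at 741 and 691 TPM in 2D and 561 and 568 TPM in 3D (-0.34, adjusted p by limma 0.00446) and Eloc at -0.41 (adjusted p by limma 0.00503). Hsp90ab1, a chaperone of the HIF alpha subunits, rose by 0.18 (adjusted p by limma 0.0242), and Hsp90aa1 did not pass (-0.29, adjusted p by limma 0.192).

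Of 22 other hypoxia targets tested 10 rose (45.5%, background 23.4%) and 5 fell (22.7%, background 27.1%). A mean of at least 1 TPM in both cultures was reached by 21 of the 22. Epo, the red cell hormone and a classical target of HIF2, was listed at 8.01 and 8.19 TPM in 2D and at 0.132 and 0.197 TPM in 3D. It passed the filter only through the 2D libraries, so no test is given for it. Its place among the 5 that fell rests on that filter. Bhlhe41, a circadian repressor, rose from 2.98 and 3.25 TPM to 7.66 and 7.58 TPM (1.07, SE 0.09, adjusted p by limma 0.00152). Plin2, a lipid droplet coat protein, rose from 584 and 574 TPM to 753 and 756 TPM (0.38, adjusted p by limma 0.0013), and Ddit4, an inhibitor of mTOR signalling, by 0.21 (adjusted p by limma 0.00938).

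Carriers and the entry of pyruvate into mitochondria showed a similar mixture. Of 5 carriers tested 2 rose (40.0%, background 23.4%) and 1 fell (20%, background 27.1%). Slc16a1, a lactate carrier, rose from 24.0 and 25.5 TPM to 33.4 and 34.3 TPM (0.44, adjusted p by limma 0.00529), while its partner Bsg did not pass (0.03, adjusted p by limma 0.748) and neither did Slc2a8 (0.06, adjusted p by limma 0.656). Slc2a2, the glucose transporter of hepatocytes, fell from 10.5 and 11.3 TPM to 6.35 TPM in both 3D libraries (-0.70, SE 0.08, adjusted p by limma 0.00334), and Slc2a4, the insulin-responsive transporter, rose by 0.47 (adjusted p by limma 0.0326). Of 12 genes of pyruvate entry and dehydrogenase 3 rose (25%) and 4 fell (33.3%), near the background of 23.4% and 27.1%. Pdk2, a dehydrogenase kinase abundant in liver, rose from 11.4 and 10.99 TPM to 28.6 and 29.5 TPM (1.302, SE 0.07, adjusted p by limma 0.000456) and was the main kinase of the 4 in every library. Pdpr, a regulatory subunit of the opposing phosphatase, rose by 0.70 (adjusted p by limma 0.0107). The enzyme subunits Pdha1 (-0.24, adjusted p by limma 0.00896) and Dld (-0.21, adjusted p by limma 0.0205) fell, and Mpc2, a subunit of the mitochondrial pyruvate carrier, did not pass (0.16, adjusted p by limma 0.0875).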

How the data were processed

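RNA-seq libraries of AML12 cells were made with a stranded kit for messenger RNA, 2 per culture. Per the study, reads were cleaned with cutadapt (1.8.3) and Trimmomatic (0.36) and mapped to GRCm38 by HISAT2 (2.0.5). StringTie (1.3.4) with the Ensembl 93 annotation gave the TPM of each gene, which the authors deposited as 1 column for each library. The table also holds the fold changes and p-values of the authors' DESeq2 comparison, which were not used. TPM values keep no depth, so no interval or limit that needs read counts was computed.

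Libraries were grouped by the culture in the labels. The test was limma 3.58.1 (R 4.3.3) on log2(TPM + 1), for genes averaging 1 TPM or more, using lmFit and eBayes (trend, robust) with a single factor for culture, two-sided, with Benjamini-Hochberg adjustment. The script was tested on simulated data. For a symbol with 2 rows the row with the higher TPM was taken. Copies were found with BLAST+ 2.17.0 against GENCODE M21 transcripts. Figures were drawn with matplotlib 3.10.9.

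The members and lists were chosen with earlier results of these data known. All members may be named, and of each wider group up to 3 genes with the highest TPM and up to 2 with the largest called fold change. As alternatives the pseudocount was set to 0.1 or 5, the filter to none or 5 TPM, and the others were centring on the median, quantile normalization, rescaling, a replicate block, a constant prior variance, an adjusted p-value under 0.01, copies summed by symbol, and each library left out. The sum of copies by sequence was added after the data were seen. Some genes of the wider list are not reported here.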

Additional observations from a re-analysis of the deposited data

How the results depend on the processing

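No fold change of the 34 tested genes reversed in direction past the threshold under the 16 alternatives. Of 539 values 487 stayed on the same side of the threshold, 46 lost a call, among 9 genes, and 6 gained one. Libraries with the same replicate number did not deviate together (correlation -0.0549 across genes) and share only a number. With the replicate block 6248 genes, 12 members higher and 4 lower were called, against 7122, 14 and 7 without it. The members lower in 3D were also 4 with no filter on low values and 3 at an adjusted p-value under 0.01, where 4223 genes and 25 of the wider list were called, against 38. The median of the glycolytic enzymes (0.1558) was 0.1472 with a pseudocount of 5, 0.0801 with no filter, 0.1638 with a mean TPM of at least 5, 0.1690 after centring, 0.1839 after quantile normalization and 0.1823 after rescaling. No filter adds Hk2 to the set and the filter of 5 TPM drops Aldoc. Centring shifts all genes alike, and a larger pseudocount shrinks the changes. Rescaling multiplies the values kept in each library by 1 factor. With it Hk1 went from 0.1558 to 0.1823 and Ldha from 0.4134 to 0.4399. For quantile normalization the cause was not tested.

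When 1 library at a time was left out, 4720 to 5954 genes were called, with 10 to 14 members higher and 3 to 5 lower, and 24 to 36 genes of the wider list. Medians ranged from 0.1878 to 0.2785 for hypoxia targets outside glycolysis and from -0.0043 (without 2D replicate 2) to 0.1567 for glycolytic enzymes. With 2 libraries per culture, and with depth unknown, small changes of genes with low TPM could not be resolved.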
